A study of Homo sapiens with 4 samples.

Results

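The stretch of chromosome 12 around DYRK2 and MDM2 held 3 of the 3644 PPARG peaks listed in a pair of human lung adenocarcinoma cell lines. It was defined as positions 67500000 to 69500000 on genome build hg19, and a peak belonged to it when its midpoint fell inside. NCI-H1993 had 2 peaks there and NCI-H2347 had 1, and none of the 3 overlapped a peak of the other line. All 3 peaks lay around DYRK2, whereas the nearest peak to MDM2 was 1040 kb away. DYRK2 was taken to span 68042 to 68060 kb and MDM2 69201 to 69240 kb, as given with the definition of the region, so distances to the genes are to the nearest kb. The region was selected on the measured scores, widths and sharing of these peaks, since the lists show strong unshared NCI-H1993 peaks beside DYRK2. Number, score, width and sharing are therefore given as a description, without a test.

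PPARG binding was mapped by chromatin immunoprecipitation and sequencing (ChIP-seq). NCI-H1993 and NCI-H2347 cells each carried a bacterial artificial chromosome (BAC) transgene that encodes PPARG fused to a LAP tag containing EGFP, and an antibody against EGFP precipitated the tagged protein. Each line gave 1 ChIP library and 1 input library (chromatin that was not precipitated), and the inputs were not analysed here. The labels give no treatment for either line, and the letters PIO in the names of both peak lists are not explained in them. The antibody recognises the tag, so binding by untagged PPARG is outside the measurement, and PPARG made from the transgene adds to any that the cells make themselves. In all, 1419 peaks were listed for NCI-H1993 and 2225 for NCI-H2347. The read depth behind them is unknown, and there was no replicate library.

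PPARG is a nuclear receptor that pairs with a retinoid X receptor on DNA and is best known for driving genes of fat storage and lipid handling when a ligand is bound. DYRK2 and MDM2 both act on the tumour suppressor p53. DYRK2 is a protein kinase that phosphorylates p53 after DNA damage and favours cell death, and MDM2 is the ubiquitin ligase that marks p53 for degradation. MDM2 is also an oncogene, gained in copy number together with neighbouring genes in some sarcomas and lung adenocarcinomas. In a gene table of another build (GRCh38.p14), used here for gene order only, 7 protein-coding genes separate DYRK2 from MDM2. They are IFNG, IL26 and IL22, which encode cytokines, then MDM1, a centriole protein, RAP1B, a small GTPase, NUP107, a nuclear pore protein, and SLC35E3, a solute carrier. CAND1, a regulator of cullin ubiquitin ligases, precedes DYRK2, and CPM, a membrane carboxypeptidase, follows MDM2. Gene positions on hg19 other than those of DYRK2 and MDM2 were not used here, so no peak was placed relative to these neighbours.

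The strongest peak of the region was an NCI-H1993 peak just above DYRK2. It covered positions 68098581 to 68100447, was 1867 bp wide and had a score of 256. The score is the authors' own value for each peak, from their peak caller, and serves here to rank peaks, or to set a lower limit, inside each list separately. This peak ranked 12 of 1419 by score and 37 by width, and its near edge lay 39 kb from DYRK2 and 1101 kb from MDM2. On the other side of DYRK2, 162 kb below the gene, NCI-H1993 had a peak at 67876899 to 67879650. That peak was 2752 bp wide and ranked 22 of 1419 by width, and its score of 215 ranked 30. The peaks thus flanked DYRK2, with 219 kb between them, and neither reached the gene. Within chromosome 12 they ranked 3 and 4 by score and 3 and 2 by width among the 75 NCI-H1993 peaks, the peak above DYRK2 being the one with the higher score and the smaller width.

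In NCI-H2347 the region held a single peak, also above DYRK2, with a score near the middle of its list. It covered positions 68160019 to 68160699, 681 bp in all, with a score of 73.7, and it lay 100 kb from DYRK2. It ranked 1187 of 2225 by score and 1689 by width, below the median of its list for both. The list medians were 77.1 for score and 832 bp for width. Among the 143 NCI-H2347 peaks of chromosome 12 it ranked 91 by score and 121 by width. The nearest NCI-H1993 peak was the one 39 kb above DYRK2, and 59.6 kb separated them. The NCI-H1993 peak below DYRK2 was 280 kb from any NCI-H2347 peak.

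**Figure D1:**
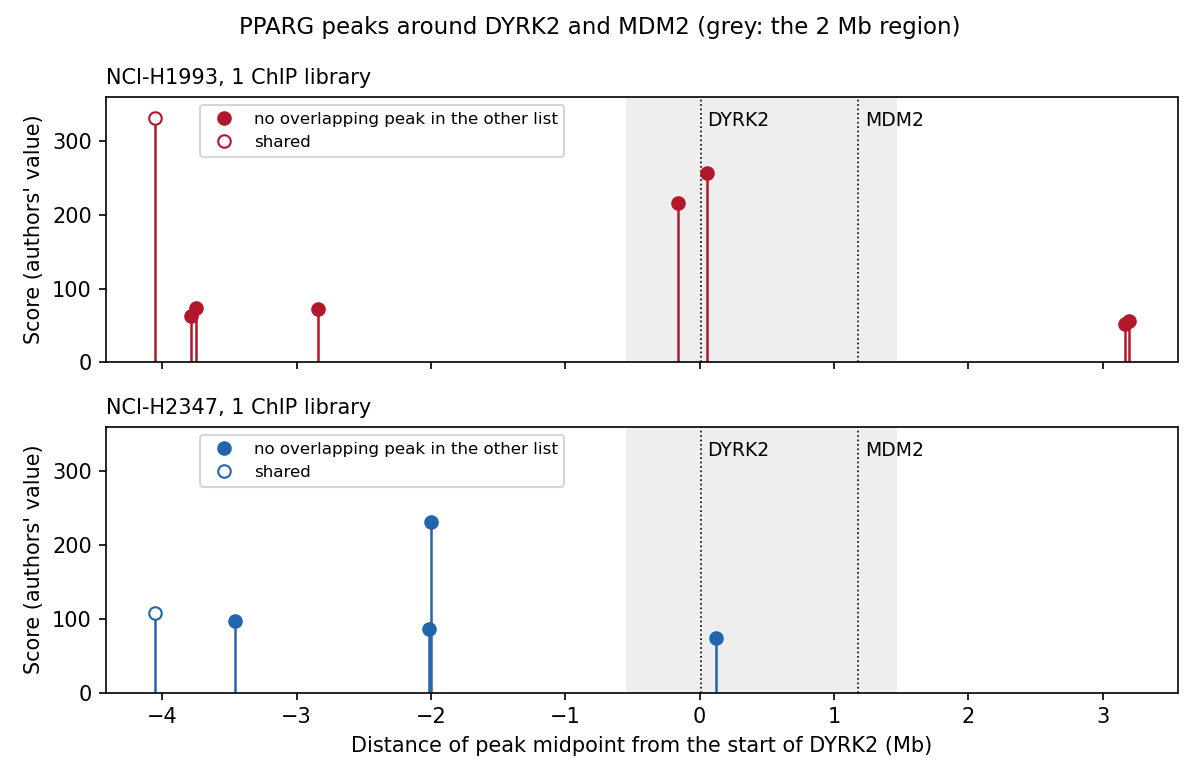
PPARG peaks around DYRK2 and MDM2 in NCI-H1993 (top) and NCI-H2347 (bottom). The x axis gives the distance of each peak's midpoint from the start of DYRK2 in Mb, the y axis the authors' score, the grey band the 2 Mb region, dotted lines the middle of each gene, and open circles peaks that overlap a peak of the other list. The NCI-H1993 peaks with scores of 215 and 256 stand on either side of DYRK2, the NCI-H2347 peak with a score of 73.7 lies above it, and no peak is near MDM2.

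Lack of overlap was common in both lists. Both NCI-H1993 peaks of the region were unshared, and so were 65.8% of the NCI-H1993 list. The 1 NCI-H2347 peak was unshared too, like 78.3% of its list. Both NCI-H1993 peaks belonged to the top 10% of their list by score, a class that makes up 9.94% of it by construction. Peaks that were in the top 10% and also unshared formed 3.66% of the NCI-H1993 list, 52 peaks in all, and 2 of the 4 on chromosome 12 were those beside DYRK2. The NCI-H2347 peak was not in the top 10% of its list, a class of 9.98%. Unshared peaks of that class formed 4.67% of the NCI-H2347 list, 104 peaks, none of them in the region. Since the region was chosen for these values, nothing is read from their comparison with the lists. A peak missing from a list did not pass the authors' threshold there, and the lists hold no signal below it, so DNA beside DYRK2 cannot be called unbound in NCI-H2347.

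The NCI-H1993 peaks beside DYRK2 combined a high score with unusual width. No other NCI-H1993 peak was both as wide and as high-scoring as either of them. This also held for NCI-H1993 peaks outside the region, so it is not particular to DYRK2. Among these were peaks of 6197 bp with a score of 137, 3957 bp with 182 and 1721 bp with 651. Of the 43 NCI-H1993 peaks wider than 1800 bp, whose median score was 77.7, these were the 2 with a score of at least 200. Of the 25 NCI-H2347 peaks wider than 1800 bp, 5 reached that score, none of them in the region, and since depth is unknown these counts are not compared between the lines. These limits of width and score were chosen after the values had been seen. Most strong unshared peaks of NCI-H1993 were narrower, with a median of 869 bp over the 52, and the peaks below and above DYRK2 ranked 2 and 4 among them by width. Peaks wider than 2500 bp were 1.76% of the NCI-H1993 list and 0.404% of the NCI-H2347 list, and the peak below DYRK2 was among them. For the NCI-H2347 peak 1061 peaks of its list, itself included, were at least as wide and as high-scoring. Together the region's peaks covered 4619 bp in NCI-H1993 and 681 bp in NCI-H2347, which is 0.385% and 0.0349% of the bases in peaks of each list.

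**Figure D2:**
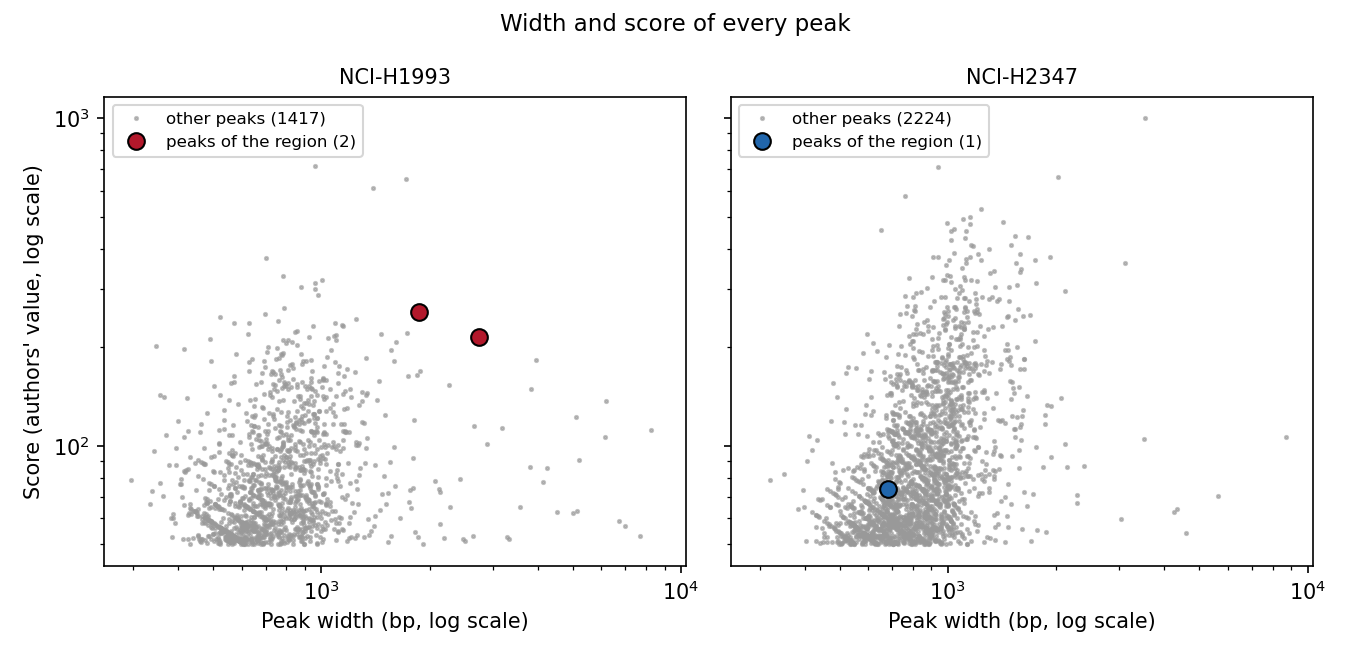
Width in bp (x axis, log scale) and authors' score (y axis, log scale) of every peak in NCI-H1993 (left) and NCI-H2347 (right), each from 1 ChIP library. Coloured points are the peaks of the region: those of NCI-H1993, at 1867 and 2752 bp, stand at the upper right edge of their list, and that of NCI-H2347, at 681 bp, lies inside the main cloud.

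By number of peaks the region did not stand apart. It held 0.141% of the NCI-H1993 list (95% Wilson interval 0.0387% to 0.512%) and 0.0449% of the NCI-H2347 list (0.00793% to 0.254%). The intervals cover counting error only. They treat peaks as independent and do not allow for the choice of the region on these same peaks. The assembled chromosomes were divided into 1458 stretches of 2 Mb, placed so that the region was one of them. On each chromosome, only those from the first to the last stretch holding a peak were counted. NCI-H1993 had at least 2 peaks in 363 of them (24.9%), and 36 held exactly 2 NCI-H1993 peaks and 1 NCI-H2347 peak, 18 of these without any shared peak. More NCI-H1993 than NCI-H2347 peaks were found in 259 stretches (17.8%). Peaks that were unshared and in the top 10% occurred 2 or more to a stretch in 3 stretches (0.206%) for NCI-H1993 and in 12 (0.823%) for NCI-H2347. For NCI-H1993, besides the DYRK2 stretch, these were on chromosome 5 from 125500001 and on chromosome 7 from 107500001, and neither of them had an NCI-H2347 peak. The chromosome 5 peaks had scores of 166 and 161 and were 774 and 935 bp wide, and those on chromosome 7 had scores of 164 and 151 and were 1846 and 1002 bp wide. The peaks beside DYRK2 scored higher than all 4, and both were wider than any of them, with the chromosome 7 peak of 1846 bp closest to the 1867 bp of the peak above DYRK2. The placement of the stretches kept the DYRK2 pair together but could split other pairs. Unshared top 10% NCI-H1993 peaks starting at 385714 and 1516359 on chromosome 5, with scores of 163 and 185, were 1130 kb apart but fell in different stretches. The count of 3 stretches therefore depends on a placement set by the region, and nothing is read from it. Nothing is read from the higher scores and larger widths beside DYRK2 either, since the region was selected on these values.

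In each line MDM2 lay in a stretch without peaks that was longer than the median interval between neighbouring peaks on chromosome 12. In NCI-H1993 no peak was listed from 68100448 to 71209551, a stretch of 3.11 Mb that ranked 11 of the 74 intervals between neighbouring peaks on chromosome 12. In NCI-H2347 the stretch reached from 68160700 to 76347153, and its 8.19 Mb made it the second longest of 142, after one of 13.9 Mb. The median interval was 0.628 Mb in NCI-H1993 and 0.222 Mb in NCI-H2347. Long intervals cover more of the chromosome, so a given gene falls in one more readily than in a short one. The ranks and medians therefore do not show that the stretch around MDM2 is unusual for a gene. In NCI-H1993 longer intervals reached 9.73 Mb. With both lists joined, the stretch that holds MDM2 was 3.05 Mb long and ranked 10 of 188. The NCI-H2347 stretch contained 3 NCI-H1993 peaks, all weak, with scores from 52.5 to 55.5. The lowest scores of the NCI-H1993 and NCI-H2347 lists were 50.03 and 50.05.

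Peaks were also absent for more than 1 Mb beyond each bound of the region. The closest outside the lower bound were an NCI-H1993 peak at 65204087 to 65205619 with a score of 71.8 and an NCI-H2347 peak at 66042562 to 66043649 with a score of 231. Their midpoints were 2.3 and 1.46 Mb from the bound. Outside the upper bound they were an NCI-H1993 peak at 71209552 to 71210545 with a score of 52.5, at 1.71 Mb, and an NCI-H2347 peak at 76347154 to 76348626 with a score of 248, at 6.85 Mb. Inside, the first peak began 377 kb above the lower bound and the last ended 1.34 Mb before the upper bound. The 3 peaks thus lay within 284 kb, or 14.2% of the region. Of the 4 outside peaks, the NCI-H2347 peak beyond the upper bound overlapped a peak of the other line, and the other 3 did not.

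**Figure D3:**
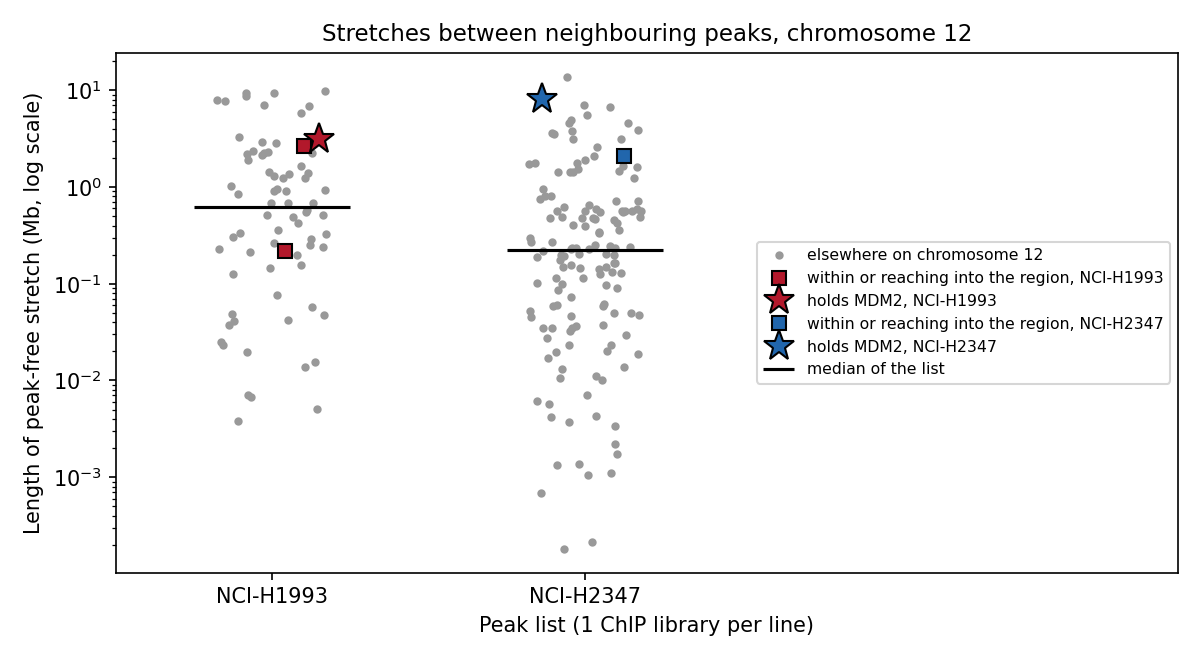
Length in Mb (y axis, log scale) of each stretch between neighbouring peaks on chromosome 12 in NCI-H1993 (left) and NCI-H2347 (right). Each point is a stretch, scattered sideways for visibility, the line is the median of the list, squares lie within or reach into the region, and stars mark the stretch that holds MDM2, 3.11 Mb in NCI-H1993 and 8.19 Mb in NCI-H2347.

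Distances between peaks close to DYRK2 were ordinary for NCI-H1993 and long for NCI-H2347. The midpoints of the NCI-H1993 peaks were 221 kb apart, and 47.3% of the 1411 NCI-H1993 peaks on the assembled chromosomes had their nearest neighbour of the same list at that distance or closer. The NCI-H2347 peak was 2117 kb from the nearest peak of its own list, measured between midpoints, and 94.3% of the 2225 NCI-H2347 peaks had a closer or equally close neighbour. Close pairs of strong unshared peaks were not limited to DYRK2. Among peaks that were unshared and in the top 10%, pairs next to each other within that class and no farther apart than the pair around DYRK2 numbered 2 in NCI-H1993, counting that pair, and 9 in NCI-H2347. No other peak of either list lay between the members of 2 of these pairs in NCI-H1993 and of 5 in NCI-H2347. The copy number of the region, chromatin state and expression of DYRK2 and MDM2 were not measured in these files.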

How the data were processed

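The 2 deposited peak lists, 1 ChIP library per cell line, give chromosome, start, end, name and score of each peak, and the score is the authors' own value. Per the submitters' processing notes, peaks were called with MACS 1.4.2 on hg19. The aligner, read filters, threshold and use of input are not given in the sources used here. Starts were converted to 1-based positions. A common stretch of 1 bp was enough to call a pair of peaks shared. Ranks and percentiles were taken within each list, since the depth of each library is unknown. Without replicates no difference between the lines was tested. The region and the peaks and genes named were chosen with earlier results of these data known. All 3 peaks of the region are named, with the nearest peaks outside its bounds, and promoter sequence was to be printed only where a peak reached a gene start, which none did. Alternatives changed the overlap rule, bounds, score and width limits and list length. In simulated lists, 200 of 200 planted overlaps among 1400 peaks were recovered. Python 3.11.15, numpy 2.4.6, pandas 2.3.3, scipy 1.17.1 and matplotlib 3.10.9 were used.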

Additional observations from a re-analysis of the deposited data

How the results depend on the processing

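The 8 values that describe the region (number of peaks, overlapping peaks, median score percentile and median width, in each line) gave 37 values under the alternatives, and 33 of these stayed within the limits set for a change. No overlapping peak appeared under any overlap rule, and moving the bounds by 500 kb outwards or 250 kb inwards changed none of the values. The spacing of the peaks fixed these outcomes in advance. Peaks of different lines were at least 59.6 kb apart, and the nearest peak outside a bound was 1.46 Mb away. Inside, the first peak began 377 kb from the lower bound and the last ended 1.34 Mb before the upper. These alternatives are among the 33, and the rest of the 33 were fixed as well, or nearly so. Removing peaks cannot create an overlap, and the peaks that stayed passed each limit by their own score, width or rank. Only 0.404% of NCI-H2347 peaks were wider than 2500 bp, so removing them could hardly move a score percentile. The 33 values therefore do not show that the results are robust. Without peaks wider than 2500 bp, NCI-H1993 kept 1 peak in the region, 1867 bp wide against a median of 2309.5 bp with both, and its score percentile was 99.2 against a median of 98.6. When peaks scoring under 100 were removed from each list, NCI-H2347 had 0 peaks there, since its peak scored 73.7. No paired analysis was possible because neither line has a replicate of its ChIP library. Read depth is unknown, which limits what the absence of a peak can show.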
